A study of Mus musculus with 7 samples.

Results

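Zinc finger protein genes were described in sorted fetal liver erythroblasts and erythroid progenitors of the mouse. They were the genes of the deposited exon coverage table whose symbol begins with Zbtb, Zkscan, Zscan or Zfp followed by a digit, without the 5 listed symbols that begin with Zfp36. Of these, Zfp36, Zfp36l1 and Zfp36l2 bind RNA through another type of finger, while Zfp367 and Zfp369 fell out by their name alone. Zfp367 had a coverage of 8.03 in erythroblasts and 1.65 in progenitors, and Zfp369 had 1.18 in erythroblasts and 2.99 in progenitors; neither is counted below. The rule found 106 of 5214 genes, and it uses names, not measured values. Of these, 104 members reached a coverage of at least 1 in at least 1 stage, as did 5194 genes in all. Zfp407, at 0.984 in erythroblasts and 0.814 in progenitors, and Zfp800, at 0.825 in erythroblasts and 0.875 in progenitors, stayed below that level and entered no count.

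Most members encode classical zinc finger proteins, in which short loops folded around a zinc ion lie in tandem and read DNA. What else the protein carries sets its family: a BTB domain lets Zbtb proteins pair and recruit corepressors, a KRAB domain recruits Trim28 and the histone methyltransferase Setdb1 to silence mobile elements and imprinted loci, and a SCAN domain pairs proteins with each other. In red cell development Zbtb7a (LRF) is known for silencing fetal globin genes in human cells and for erythroblast survival in mice. EKLF, the product of Klf1 and itself a zinc finger factor, binds CACCC elements of erythroid genes.

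The study mapped EKLF by chromatin immunoprecipitation sequencing (ChIP-seq) and measured RNA at 2 stages of red cell differentiation. Erythroblasts were Ter119+CD71+ cells. Ter119 appears on red cells as they mature, and CD71 takes up transferrin-bound iron. Erythroid progenitors were Ter119- cells, with CD71- and CD71+ cells pooled. Both stages were untreated primary cells from E13.5 livers of mice whose Klf1 carries a hemagglutinin tag, so no library comes from cells with untagged Klf1. The 7 samples were an EKLF ChIP and an input library of each stage, 2 RNA libraries of erythroblasts and 1 of progenitors. The labels speak of at least 3 sorts per population but do not give the number of livers pooled.

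The deposited values hold 1 coverage column and 1 pooled peak list per stage, which leaves every stage difference without replicates and without a test. Instead, a gene is said below to have risen or fallen where log2((erythroblasts + 1) / (progenitors + 1)) reached a difference of 2-fold. The table lists only coding exons at or above 0.8 in both stages, so a gene near 0 in either was not analysed here. Its values are not divided by exon length and are therefore compared for the same gene between stages, never between genes. If 1 step of the values is 1 sequenced base, the median member stood for 249 reads of 51 bases in erythroblasts and 219 in progenitors, and the lowest value of a member for 34.8 reads in erythroblasts and 29.3 in progenitors. Of the 10 erythroid markers checked 7 were listed, and 5 of these rose. No marker on the lists for B cells, endothelium, liver cells, macrophages, granulocytes or mast cells was in the table. Of the megakaryocyte markers Gp1ba was listed, with 31.6 in erythroblasts and 9.35 in progenitors, and its part in the results was not tested. In bulk RNA of sorted cells, fewer cells of a type and less RNA per cell cannot be told apart.

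Zinc finger genes were listed about as often as other genes. RefSeq annotates 456 protein-coding genes by the same rule in build GRCm38.p6, and 23.2% of them were in the table, against 23.8% of all 21900 protein-coding genes. The share varied by family: 21 of 41 annotated Zbtb genes (51.2%) were listed, 79 of 388 Zfp genes (20.4%) and 6 of 27 Zkscan and Zscan genes (22.2%). Members had few listed exons. A single exon was listed for 67 of the 104 members, against 1551 of all 5194 genes.

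Among the zinc finger genes falls were more numerous than rises. Of the 104 members 9 rose (8.65%, Wilson 95% interval 4.62 to 15.6%), against a background of 15.3% of all genes. Falls were seen in 21 members (20.2%, interval 13.6 to 28.9%), against a background of 13.2%. The other 74 members lay under the rule, between -0.98 and 0.97 on the log2 scale. The members' median log2 difference was -0.20, against 0.03 over all genes, and 67 of them lay below 0. The first interval includes its background and the second lies just above its own. Both cover counting error over genes only, and members share the same libraries. The summed coverage of all members was 0.528% of the table in erythroblasts and 0.747% in progenitors.

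**Figure D1:**
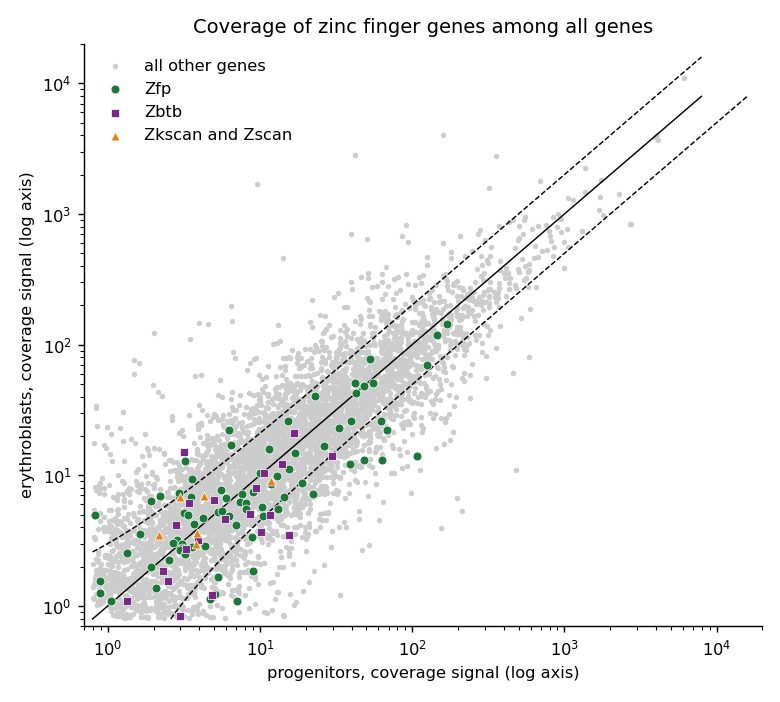
Summed coverage signal of each gene in erythroblasts (vertical log axis) against progenitors (horizontal log axis), with the zinc finger families in colour and all other genes in grey. The solid line marks equal coverage and the dashed lines the 2-fold rule with 1 added to each value. Of the coloured symbols 9 lie above the upper dashed line and 21 below the lower one.

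Of 21 Zbtb genes 6 fell (28.6%) and 1 rose (4.76%), where 13.2% of all genes fell and 15.3% rose. No difference between families was tested. Zbtb7b (ThPOK), known for committing T cells to the CD4 lineage, had a coverage of 3.51 in erythroblasts and 15.5 in progenitors, a log2 difference of -1.87. Zbtb2 fell to 3.70 in erythroblasts, against 10.1 in progenitors (-1.24). Zbtb38, which binds methylated CpG sites, fell to 4.93 in erythroblasts, against 11.7 in progenitors (-1.09). All 3 were measured on a single listed exon. Zbtb34 (-1.41) and Zbtb44 (-1.12) also fell but stayed under 5 in both stages. Zbtb45 had 13.9 in erythroblasts and 29.7 in progenitors (-1.04), and its 2 exons were unlike each other, with log2 differences of 0.14 and -1.25. The 1 that rose was Zbtb39, with 14.9 in erythroblasts and 3.15 in progenitors (1.94), the largest rise of any member and again on a single exon.

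The remaining 14 BTB genes lay between -0.67 and 0.69. Zbtb7a had 21.2 in erythroblasts and 16.8 in progenitors, a log2 difference of 0.32 that did not reach the rule, and both of its listed exons were higher in erythroblasts (0.15 and 0.61). Zbtb17 (Miz-1), a partner of Myc at repressed promoters, had 7.99 in erythroblasts and 9.36 in progenitors (-0.21). Zbtb4, which like Zbtb38 binds methylated DNA, had 1.86 in erythroblasts and 2.32 in progenitors (-0.22). Zbtb24, mutated in a human immunodeficiency with unstable centromeres, was at the upper end, with 6.12 in erythroblasts and 3.41 in progenitors. Zbtb1, needed for lymphocyte development in mice, was at the lower end, with 5.01 in erythroblasts and 8.54 in progenitors. The other members were Zbtb5, Zbtb9, Zbtb11, Zbtb14, Zbtb18, Zbtb21, Zbtb22, Zbtb25 and Zbtb48.

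Of 19 genes grouped as KRAB or SCAN factors 2 rose (10.5%) and 3 fell (15.8%), beside 15.3% and 13.2% of all genes. Their median was -0.07. The group was assigned by hand and may leave out other members with these domains. Zfp445, which maintains DNA methylation of imprinted loci in the mouse, had a coverage of 22.4 in erythroblasts and 6.24 in progenitors (1.69), and both of its listed exons rose by at least 2-fold on their own (2.01 and 1.62). Zfp180 had 7.30 in erythroblasts and 2.93 in progenitors (1.08). In the other direction, Zfp777 had 13.0 in erythroblasts and 48.4 in progenitors (-1.81) over 2 exons. Zfp317 had 1.85 in erythroblasts and 8.96 in progenitors (-1.81), and Zfp7 had 1.23 in erythroblasts and 5.05 in progenitors (-1.44), each on 1 exon. Zkscan3, a repressor of autophagy genes in human cells, came closest to the rule in this group without passing it, with 6.80 in erythroblasts and 2.98 in progenitors (0.97). Zfp568, which represses a placental Igf2 transcript in the mouse, had 2.90 in erythroblasts and 4.36 in progenitors (-0.46). The others under the rule were Zkscan1, Zkscan17, Zscan21, Zscan22, Zscan25, Zfp84, Zfp110, Zfp212, Zfp251, Zfp263, Zfp282 and Zfp746. None of the 6 Zkscan and Zscan genes passed the rule, where 15.3% of all genes rose and 13.2% fell.

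Corepressors of KRAB and BTB proteins were looked at beside the members, on lists that also hold other silencing factors and partners. Of 16 genes on a KRAB corepressor list 13 were in the table, and 1 rose (7.69%) and 3 fell (23.1%), beside 15.3% and 13.2% of all genes, with a median of -0.23. Setdb1 had 41.9 in erythroblasts and 143 in progenitors (-1.75) over 12 exons. Pphln1, a subunit of the HUSH silencing complex, had 1.78 in erythroblasts and 6.37 in progenitors (-1.41), and the histone chaperone Daxx had 20.4 in erythroblasts and 45.8 in progenitors (-1.13). Cbx5, heterochromatin protein 1 alpha, rose to 22.9 in erythroblasts, against 7.61 in progenitors (1.47). Trim28 itself had 235 in erythroblasts and 355 in progenitors (-0.59) and did not pass the rule. Of 16 genes on a BTB corepressor list 12 were in the table, with a median of -0.27. None of them rose, against 15.3% of all genes, and 1 fell (8.33%, against 13.2% of all genes). This was Sin3a, which fell to 32.3 in erythroblasts, against 78.1 in progenitors (-1.25).

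Of 12 promoter and chromatin factors, a group assigned by hand, none rose and 2 fell (16.7%), beside 15.3% and 13.2% of all genes. Their median was -0.32. Zfp652, whose human counterpart partners with the corepressor CBFA2T3, showed the largest fall of any member, with 14.0 in erythroblasts and 107 in progenitors (-2.85). Its 2 listed exons had 5.79 and 8.25 in erythroblasts, against 21.2 and 85.8 in progenitors. Zfp143, a promoter-binding activator, had 1.68 in erythroblasts and 5.32 in progenitors (-1.24). The other 10 stayed under the rule. Zfp592 had 119 in erythroblasts and 146 in progenitors (-0.29), and Zfp687, which occurs with Zfp592 and Zmynd8 in a complex in human cells, had 51.1 in erythroblasts and 54.9 in progenitors (-0.10). Zfp217, which binds corepressors and is amplified in human breast cancer, was the 1 factor above 0, with 77.7 in erythroblasts and 52.9 in progenitors (0.55). Zfp410, whose human counterpart activates the nucleosome remodeler gene CHD4, had 9.90 in erythroblasts and 12.9 in progenitors (-0.35), and Chd4 had 235 in erythroblasts and 416 in progenitors (-0.82). Zfp148, Zfp281, Zfp335, Zfp384, Zfp609 and Zfp703 made up the rest.

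Members that act on RNA, ribosomes or proteins gave 1 rise and 1 fall among 9 (11.1% each), beside 15.3% and 13.2% of all genes. Zfp830, a nuclear protein linked to splicing, had 17.1 in erythroblasts and 6.41 in progenitors (1.29). Zfp598, the ubiquitin ligase that marks collided ribosomes, fell to 26.0 in erythroblasts, against 62.1 in progenitors (-1.22), and all 8 of its listed exons were lower in erythroblasts, between -2.09 and -0.14. Zfp207 (BuGZ), a spindle and splicing protein, had a coverage of 143 in erythroblasts and 170 in progenitors (-0.24). Its 7 listed exons did not move together. Counting exons from 0 as the table does, exon 9 had 28.7 in erythroblasts and 51.6 in progenitors (-0.85), while the next one had 17.0 in erythroblasts and 4.52 in progenitors (1.91). Zfp106, an RNA-binding protein needed for motor function in mice, had 69.4 in erythroblasts and 125 in progenitors (-0.84), with exons between -2.48 and 0.19. Zfp91, Zfp346, Zfp451, Zfp622 and Zfp638 were the others, and all lay under the rule.

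The 43 tested members with no role assigned gave 5 rises (11.6%) and 9 falls (20.9%), beside 15.3% and 13.2% of all genes. Zfp507 rose to 12.8 in erythroblasts, against 3.22 in progenitors (1.71), and Zfp664 to 9.31 in erythroblasts, against 3.58 in progenitors (1.17). Zfp62 had 6.96 in erythroblasts and 2.21 in progenitors (1.31), and Zfp330, a nucleolar protein, had 6.38 in erythroblasts and 1.92 in progenitors (1.34). Zfp790 had 4.93 in erythroblasts and 0.825 in progenitors (1.70), where the progenitor value lay just above the listing limit of 0.8. All 5 rises rested on a single exon. Zfp64, whose human counterpart activates the MLL gene in leukaemia cells, had the second largest fall of the members, with 13.1 in erythroblasts and 63.4 in progenitors (-2.19) and both exons lower.

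Zfp142 fell evenly over its 3 exons (-1.71, -1.67 and -1.74), with 12.1 in erythroblasts and 39.3 in progenitors (-1.62). Zfp865 had 22.0 in erythroblasts and 68.3 in progenitors (-1.59), and Zfp219, a partner of Sox9 in cartilage, had 7.23 in erythroblasts and 22.1 in progenitors (-1.49). Zfp239 had 1.09 in erythroblasts and 7.04 in progenitors (-1.94). Zfp408, linked to inherited retinal disease in humans, had 3.37 in erythroblasts and 8.84 in progenitors (-1.17). Zfp668 had 5.53 in erythroblasts and 13.2 in progenitors (-1.12), and Zfp553 had 8.73 in erythroblasts and 18.9 in progenitors (-1.03). Zfp956 (-1.42) was under 5 in both stages.

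The other 29 genes of this group lay between -0.98 and 0.79. Zfp768 (-0.98) and Zfp637 (-0.96) were the nearest to a fall, and Zfp280b (0.79) and Zfp526 (0.77) lay highest. Between them were Zfp46, Zfp61, Zfp146, Zfp292, Zfp318, Zfp358, Zfp414, Zfp444, Zfp511, Zfp512, Zfp513, Zfp524, Zfp574, Zfp628, Zfp629, Zfp639, Zfp646, Zfp653, Zfp672, Zfp688, Zfp691, Zfp692, Zfp787, Zfp821 and Zfp868.

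**Figure D2:**
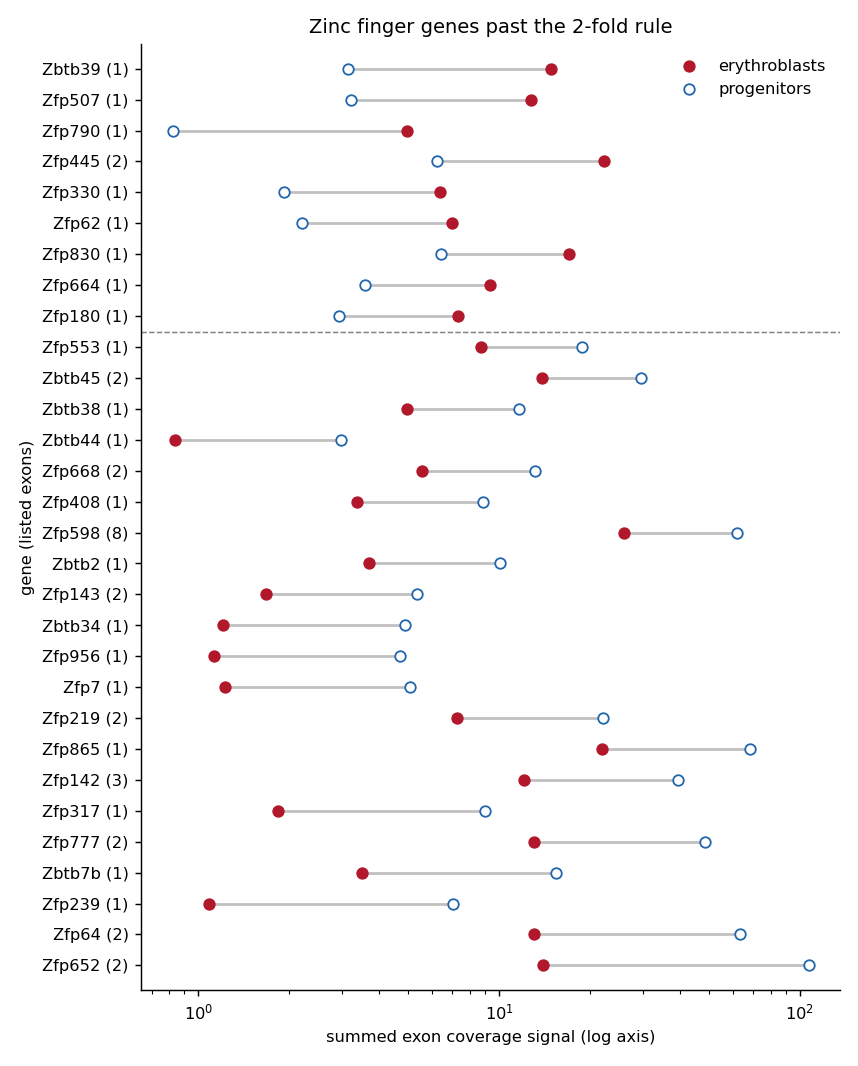
Summed coverage signal (horizontal log axis) of the 30 members past the 2-fold rule, with erythroblasts as filled red points and progenitors as open blue points, and the number of listed exons in parentheses. The 9 genes above the dashed line rose and the 21 below it fell, and 20 of the 30 rest on 1 listed exon.

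Counts were also taken by the number of listed exons, without a test between the subsets. Among the 67 members with 1 listed exon 8 rose (11.9%, interval 6.18 to 21.8%) and 12 fell (17.9%, interval 10.6 to 28.7%), where the background of genes with 1 listed exon was 15% higher and 15.1% lower. Among the 37 members with more exons 1 rose (2.70%, interval 0.479 to 13.8%) and 9 fell (24.3%, interval 13.4 to 40.1%), while of all such genes 15.4% rose and 12.4% fell. In 16 of those 37 members (43.2%) all exons had the same sign, against 47.0% of genes with several exons. The median SD between a member's exons was 0.49 on the log2 scale, and exons are not replicates. Zinc finger genes resemble each other in sequence, and how reads that match several of them were counted is not stated in any source used here.

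**Figure D3:**
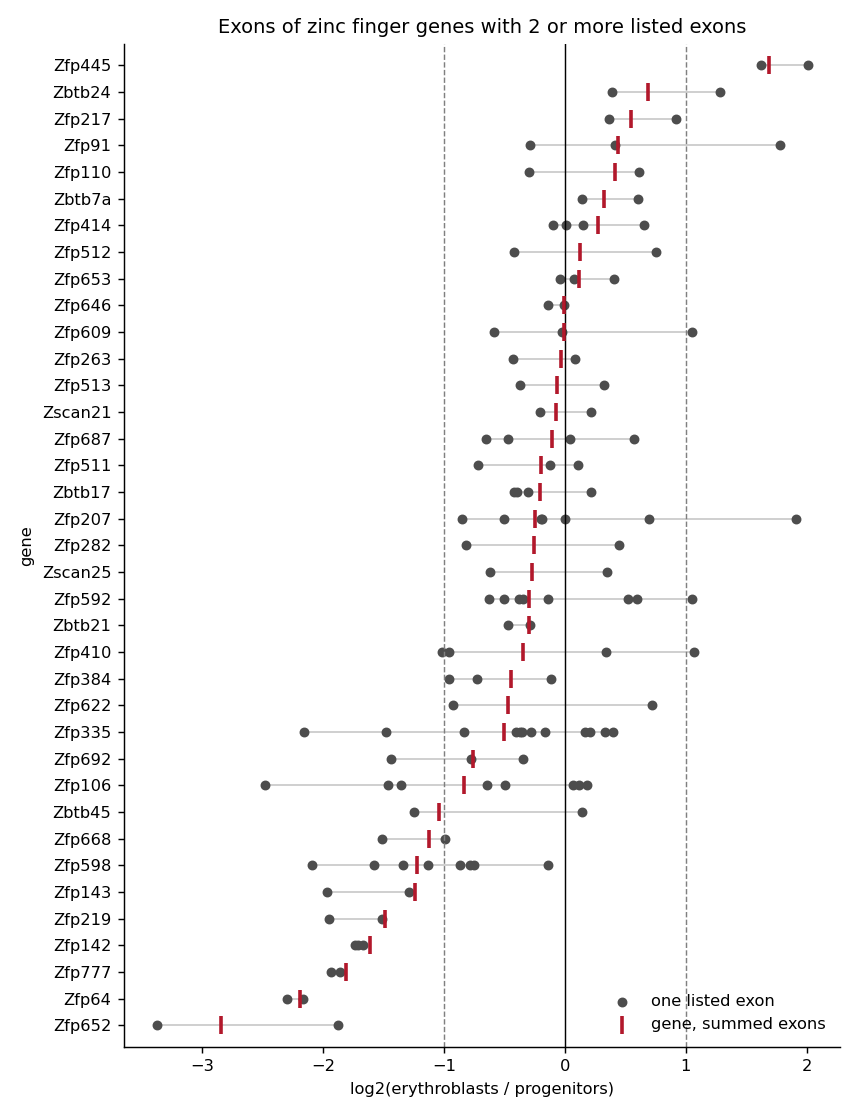
Log2 ratio of erythroblasts over progenitors for each listed exon (grey points, with nothing added to the values) of the 37 members with several listed exons, with the summed gene as a red mark (1 added to each stage). Dashed lines mark 2-fold. The exons of Zfp142 lie together near -1.7, while those of Zfp207, Zfp335 and Zfp106 spread over both sides of 0.

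EKLF peaks lay near a smaller share of zinc finger genes than of all genes. A peak was assigned to a gene if it fell inside the stretch that its listed exon starts span, or up to 5 kb outside it. Erythroblast peaks lay at 29 of 104 members (27.9%, interval 20.2 to 37.2%), against a background of 46.5% of all genes. Progenitor peaks lay at 22 members (21.2%, interval 14.4 to 30.0%), against 30.9%. Both stages had a peak at 17 members (16.3%, background 27.1%), erythroblasts alone at 12 (11.5%, background 19.4%) and progenitors alone at 5 (4.81%, background 3.79%). No peak was found at 70 members (67.3%, background 49.7%). Those with both were Zbtb7a, Zbtb14, Zfp91, Zfp282, Zfp335, Zfp414, Zfp511, Zfp513, Zfp524, Zfp553, Zfp574, Zfp622, Zfp646, Zfp653, Zfp687, Zfp768 and Zfp830. Those with an erythroblast peak alone were Zbtb18, Zbtb22, Zbtb24, Zfp358, Zfp445, Zfp526, Zfp628, Zfp637, Zfp691, Zfp692, Zfp777 and Zfp790. Fewer listed exons leave a shorter stretch to search. Among genes with 1 listed exon an erythroblast peak lay at 14 of 67 members (20.9%, interval 12.9 to 32.1%, background 31.7%) and a progenitor peak at 8 (11.9%, background 21.2%). Of those 67 members 51 had no peak (76.1%, background 64.9%), 6 had both (8.96%, background 17.9%), 8 had erythroblasts alone (11.9%, background 13.9%) and 2 had progenitors alone (2.99%, background 3.35%). Among genes with more exons, erythroblast peaks lay at 15 of 37 members (40.5%), against 52.8%, and progenitor peaks at 14 (37.8%), against 35.1%. All of these peaks come from 1 pooled list per stage.

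**Figure D4:**
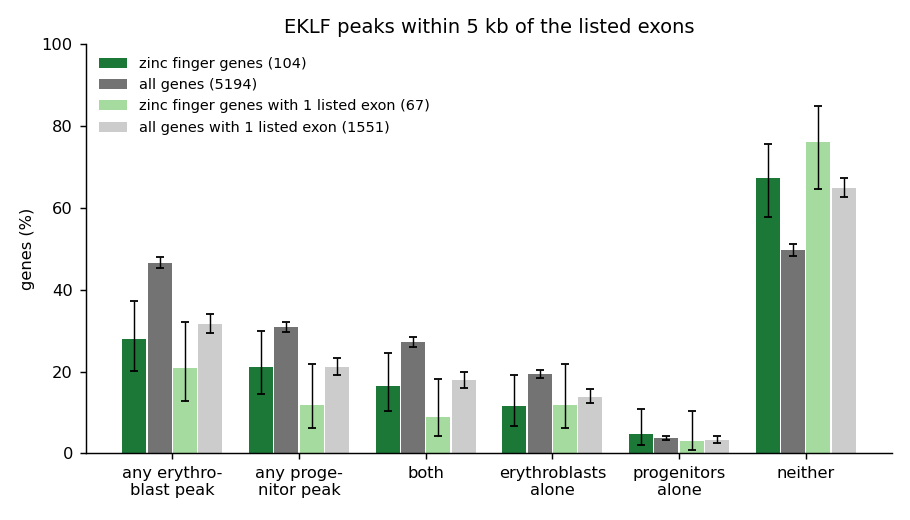
Share of genes (vertical axis, percent) with an EKLF peak within 5 kb of the listed exons, by class, for zinc finger genes (green), all genes (dark grey) and the same with 1 listed exon (light shades). Error bars are Wilson 95% intervals. Zinc finger genes have no peak in 67.3% of cases, against 49.7% of all genes.

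The peaks at members lay mostly upstream of the listed exon starts, and the same share was not computed for other genes. Sides and distances are taken from these starts only, which are the lower genomic coordinate of each exon on both strands. Upstream can therefore include the listed exon itself for genes on the reverse strand, and downstream can for genes on the forward strand. Either side can also include parts of the gene that are not listed. Of 33 erythroblast peaks 23 lay upstream, 5 overlapped the span and 5 lay downstream, and of 24 progenitor peaks 17 lay upstream, 6 overlapped and 1 lay downstream. Their median fold enrichment, the authors' own value per peak, was 9.08 in erythroblasts and 7.10 in progenitors, where peaks within the same distance of any gene tested had 11.3 in erythroblasts and 7.70 in progenitors. Over the whole lists the medians were 9.31 in erythroblasts and 7.03 in progenitors. A peak of the other stage overlapped 18 of the 33 erythroblast peaks and 19 of the 24 progenitor peaks. A listed gene that is no zinc finger gene lay within the same distance of 7 of the erythroblast peaks and 5 of the progenitor peaks.

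The 3 erythroblast peaks of highest enrichment among members were at genes that did not pass the 2-fold rule. In Zfp91, an unusual ubiquitin ligase and a target of the drug-bound ligase cereblon in human cells, an erythroblast peak at chr19:12868940-12871668 (mm9) covered the listed exon farthest upstream, with an enrichment of 23.2, and a progenitor peak at almost the same place had 15.9. Zfp91 had a coverage of 15.9 in erythroblasts and 11.5 in progenitors (0.44). At Zfp691 an erythroblast peak of enrichment 23.2 lay 3.29 kb upstream (chr4:118846080-118847440, mm9) with no progenitor peak. That distance runs from the lower coordinate of its listed exon on the reverse strand and can include the exon itself. The gene had 4.96 in erythroblasts and 3.35 in progenitors (0.46). At Zfp628 an erythroblast peak of 22.3 lay 2.60 kb upstream (chr7:4866319-4867781, mm9), again with no progenitor peak, and the gene had 14.8 in erythroblasts and 17.0 in progenitors (-0.19). The next in enrichment were Zfp553 (18.2 in erythroblasts and 7.16 in progenitors), Zfp335 (15.9 in erythroblasts and 7.88 in progenitors), Zbtb24 (15.7 in erythroblasts alone) and Zfp646 (15.2 in erythroblasts and 4.55 in progenitors).

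Among all genes, a peak of either stage lay at 398 of the 794 that rose and at 322 of the 685 that fell. Of the 30 members that passed the rule 6 had a peak. Those that rose were Zfp445 and Zfp790, each with an erythroblast peak alone (enrichment 9.84 and 9.19), and Zfp830, whose only listed exon lay under peaks of both stages (9.08 in erythroblasts at chr11:82577154-82578597 and 5.33 in progenitors, mm9). Those that fell were Zfp777 with an erythroblast peak alone (8.27), Zfp553 with both, and Zbtb45 with a progenitor peak alone (8.22). By rank among 19353 erythroblast peaks, those at Zfp445, Zfp790, Zfp830, Zfp777 and Zfp553 were number 16224, 19258, 10521, 12127 and 2977. By rank among 7358 progenitor peaks, those at Zbtb45, Zfp830 and Zfp553 were number 6802, 4510 and 3657. Among the 34 members with any peak 3 rose and 3 fell (8.82% each), where 15.2% of all genes with a peak rose and 12.3% fell. Among the 70 members with none 6 rose (8.57%) and 18 fell (25.7%), where 15.3% of all genes with no peak rose and 14.1% fell. The difference between members with and without a peak was not tested. The 5 members with a progenitor peak alone were Zbtb45, Zbtb9, Zfp207, Zfp703 and Zscan25. Of these Zbtb45 fell, and the other 4 lay under the rule, between -0.63 and -0.23.

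Zbtb7a had peaks of both stages at different places within the window. In erythroblasts a peak of enrichment 7.34 covered its first listed exon (chr10:80603849-80608601, mm9). Another of 4.92 lay 1.44 kb downstream of the start of its last listed exon. In progenitors a peak of 6.68 lay 4.88 kb upstream (chr10:80596747-80601836, mm9) and was number 259 of 7358 in the rank of that list. That progenitor peak overlapped an erythroblast peak lying beyond the window.

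Promoter sequences are shown for Zbtb7a, for the 3 members with the strongest peaks, and for Zfp553 and Zfp830, which passed the rule and had peaks of both stages. Each is the 250 bases before a RefSeq start in build GRCm38.p6, written 5′ to 3′ on the strand of the gene. Capitals mark CCNCNCCC, the form of the CACCC element that EKLF reads, on either strand, and overlapping matches form 1 capital run. The windows are chr10:81136021-81136270 (+) for Zbtb7a, chr7:127232811-127233060 (+) for Zfp553, chr7:4914967-4915216 (+) for Zfp628, chr4:119174196-119174445 (-) and chr4:119173857-119174106 (-) for the 2 starts of Zfp691, chr11:82764095-82764344 (+) for Zfp830 and chr19:12796124-12796373 (-) for Zfp91. Peaks are in mm9, so whether a peak covers a window was not tested.
Zbtb7a: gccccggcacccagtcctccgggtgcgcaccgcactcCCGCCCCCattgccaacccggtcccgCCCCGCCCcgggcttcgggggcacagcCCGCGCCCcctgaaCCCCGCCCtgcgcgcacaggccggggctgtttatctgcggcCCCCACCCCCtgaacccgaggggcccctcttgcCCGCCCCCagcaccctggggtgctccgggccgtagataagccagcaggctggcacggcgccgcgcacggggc
Zfp553: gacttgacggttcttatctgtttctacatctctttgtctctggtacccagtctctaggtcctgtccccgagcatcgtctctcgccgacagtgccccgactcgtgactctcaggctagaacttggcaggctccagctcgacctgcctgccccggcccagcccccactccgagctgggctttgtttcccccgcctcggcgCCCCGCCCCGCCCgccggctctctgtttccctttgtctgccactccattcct
Zfp628: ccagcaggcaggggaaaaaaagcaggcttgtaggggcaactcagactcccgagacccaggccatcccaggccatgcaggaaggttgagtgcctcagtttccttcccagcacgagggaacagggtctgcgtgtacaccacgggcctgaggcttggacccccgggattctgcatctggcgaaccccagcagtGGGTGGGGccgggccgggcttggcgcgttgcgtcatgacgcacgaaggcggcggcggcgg
Zfp691 (upstream window): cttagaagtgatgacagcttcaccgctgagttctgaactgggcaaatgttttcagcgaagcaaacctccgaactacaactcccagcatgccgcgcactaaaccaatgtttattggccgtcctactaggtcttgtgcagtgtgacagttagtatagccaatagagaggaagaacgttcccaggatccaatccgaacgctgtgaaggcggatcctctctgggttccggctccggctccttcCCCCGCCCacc
Zfp691 (downstream window): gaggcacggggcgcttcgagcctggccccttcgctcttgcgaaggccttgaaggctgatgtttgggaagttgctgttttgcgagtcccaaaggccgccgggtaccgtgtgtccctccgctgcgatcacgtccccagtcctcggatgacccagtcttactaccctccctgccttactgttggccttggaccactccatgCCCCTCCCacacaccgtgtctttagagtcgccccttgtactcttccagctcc
Zfp830: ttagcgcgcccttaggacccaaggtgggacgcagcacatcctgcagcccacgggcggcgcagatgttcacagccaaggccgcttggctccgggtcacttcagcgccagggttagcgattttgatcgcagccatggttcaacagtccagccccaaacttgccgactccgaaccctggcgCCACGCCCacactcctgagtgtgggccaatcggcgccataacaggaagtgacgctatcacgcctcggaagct
Zfp91: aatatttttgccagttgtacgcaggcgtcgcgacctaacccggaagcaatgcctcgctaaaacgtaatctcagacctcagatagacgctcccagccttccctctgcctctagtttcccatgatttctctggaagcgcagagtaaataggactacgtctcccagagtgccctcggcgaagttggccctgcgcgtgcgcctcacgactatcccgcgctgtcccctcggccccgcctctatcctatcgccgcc

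The Zbtb7a window held 7 matches to CCNCNCCC, all on the strand of the gene, and 2 to AGATAA, the form read by GATA factors. Zfp553 had 2 overlapping matches to CCNCNCCC and 1 to AGATAA. Zfp628 had 1 match on the other strand, Zfp830 and each Zfp691 window had 1 on the strand of the gene, and Zfp91, with the strongest erythroblast peak of these genes together with Zfp691, had none in this window. Such matches were common. Windows were found for 92 members, and 81 of their 128 windows (63.3%) held CCNCNCCC, against 63.8% of windows of all genes tested and 45.9% of all promoter windows. The median GC content was 60.4% in windows of members and of all genes tested and 52.4% in all promoter windows. CCNCNCCC was in 56.1% of windows of members with a peak and in 66.7% of those without. AGATAA was in 7.03% of member windows, against 5.51% for all genes tested, in 5 of 41 windows of members with a peak (12.2%) and in 4 of 87 of those without (4.60%).

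Many zinc finger genes lie in clusters on the chromosomes, and listed neighbours were set side by side. Chromosome 7 held 26 of the 106 members (24.5%), against 7.96% of all genes in the table. With gaps of up to 250 kb, 37 members formed 14 groups, the largest of 5 genes over 184 kb on chromosome 6. There Zfp777 (-1.81) and Zfp956 (-1.42) fell, while Zfp282 (-0.26), Zfp746 (-0.11) and Zfp212 (0.79) lay under the rule. On chromosome 7, Zfp865 fell (-1.59) with Zfp524 (0.07) next to it, and Zfp790 rose (1.70) beside Zfp84 (0.57), with Zfp568 (-0.46) and Zfp146 (-0.34) farther along. None of the 14 groups held both a rise and a fall, but rises were few among the members. In 9 of the groups members lay on both sides of 0, in 4 all lay below 0 and in 1 all lay above. Neighbours among other genes were not counted.

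**Figure D5:**
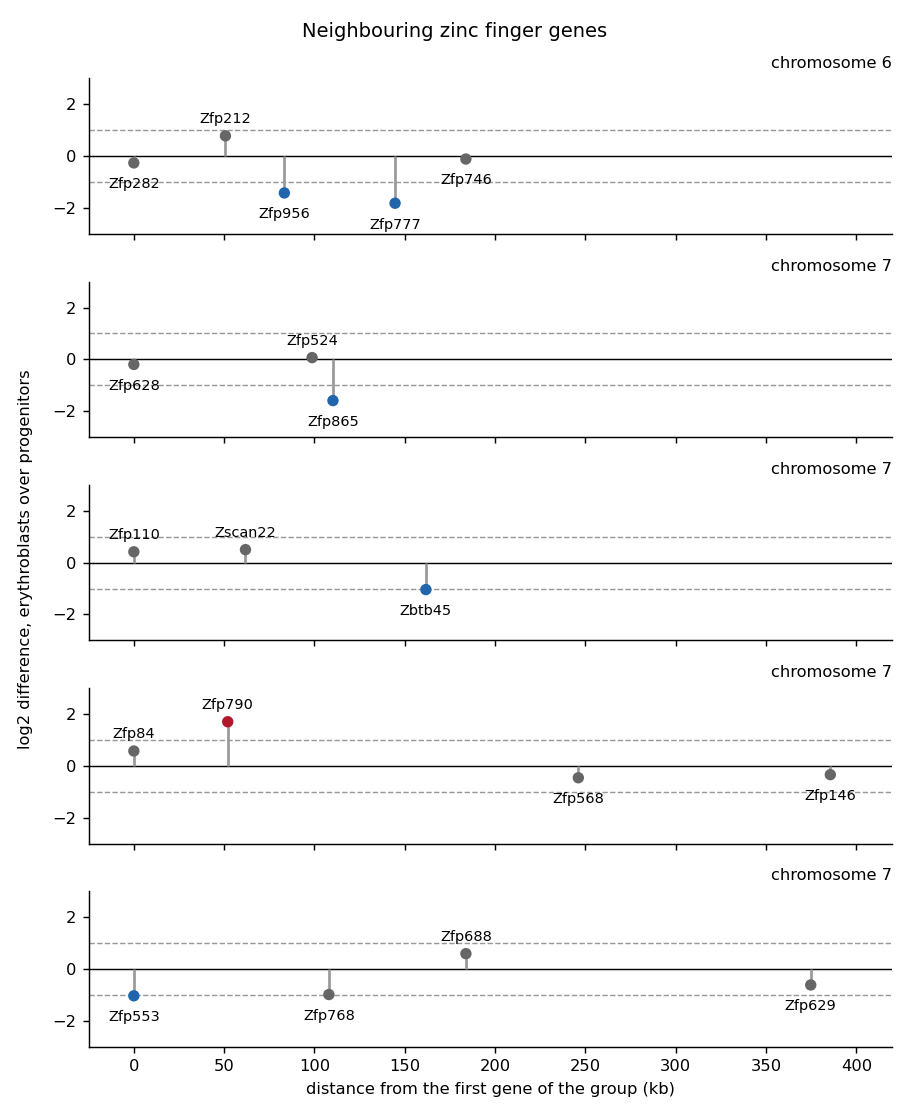
Log2 difference of erythroblasts over progenitors (vertical axis) of the listed zinc finger genes in the 5 groups of at least 3 neighbours, placed by distance from the first gene in kb. Dashed lines mark 2-fold, red is past the rule and higher, blue past the rule and lower, and grey under it. In the chromosome 6 group Zfp956 and Zfp777 are blue while Zfp212 lies above 0.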

How the data were processed

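The members and gene lists were chosen with earlier results of these data known. Per the labels, input chromatin was the background for peak calling. Build mm9 is named in the submitters' processing notes. Which programs aligned reads, called peaks and counted coverage was not given in the sources used here. As for units, the deposited coverage signal is named as RPKM by the authors, but nearly all values fall within 0.01 of a whole number of steps (2151 steps per unit in erythroblasts and 1835 in progenitors), with no exon length divided out. No source used here states whether the erythroblast column pools both RNA libraries, so columns are printed without SD or n. In the deposited peak lists, column 7 was read as the authors' fold enrichment and column 8 as their -log10 p-value, which sets the rank.

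Of 6853 transcripts 6772 matched a RefSeq symbol. The listed exons of the transcript with the most were summed per gene, genes under 1 in both columns were left out, and 1 was added before log2. A model with a test needs a column per library, so a fixed 2-fold rule replaced it, as the design provided. Full values were given, by rule, to members past 2-fold with at least 5 in the higher stage, the 5 best covered under it, Zbtb7a, Zbtb17, Zbtb4 and members with an enrichment of at least 20. Further members, such as those at the ends of a group, were named after their values were seen. Role groups were assigned by hand. Motifs were counted on both strands. The steps were tested on simulated data. Python 3.11.15, pandas 2.3.3, numpy 2.4.6, scipy 1.17.1 and matplotlib 3.10.9 were used. Input libraries were not analysed here.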

Additional observations from a re-analysis of the deposited data

How the results depend on the processing

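With 5 in place of 1 added before the logarithm, 3 members rose (2.88%, all genes 9.86%) and 9 fell (8.65%, all genes 7.91%), so the share of falls then lay close to that of all genes. Among members with at least 2 listed exons 1 rose (2.70%, all such genes 15.4%) and 9 fell (24.3%, all such genes 12.4%). Those with 1 listed exon were a split chosen after seeing the data. Of these, 8 rose (11.9%, all such genes 15.0%) and 12 fell (17.9%, all such genes 15.1%). Both of these settings hold fewer genes. The median log2 difference stayed between -0.27 and -0.11 over all settings run. Of the 30 members past the rule 12 stayed past it in every setting that lists them, namely Zfp652, Zfp64, Zbtb7b, Zfp777, Zfp317, Zfp142, Zfp865, Zfp219, Zfp598, Zfp445, Zfp507 and Zbtb39. Adding 5 took the other 18 under it, and Zbtb45 also fell short with the median of its exons (-0.55). Zfp768 and Zfp637 passed it as falls under several scalings, and Zfp212 and Zkscan3 as rises with 0.1 added.

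Counts of members with a peak followed the window and the peaks admitted. Within 1 kb, 9 members had an erythroblast peak (8.65%, all genes 30.8%) and 12 a progenitor peak (11.5%, all genes 19.6%). Of the members 6 had both (5.77%, all genes 17.0%) and 3 erythroblasts alone (2.88%, all genes 13.8%). Progenitors alone went the other way, with 6 members (5.77%, all genes 2.66%). Within 50 kb the counts were 88 for erythroblasts (84.6%, all genes 88.1%) and 68 for progenitors (65.4%, all genes 70.1%). Both stages gave 65 (62.5%, all genes 67.6%) and neither 13 (12.5%, all genes 9.38%). Erythroblasts alone gave 23 (22.1%, all genes 20.5%) and progenitors alone 3 (2.88%, all genes 2.54%). Peaks ranked above the middle of each list gave 13 for erythroblasts (12.5%, all genes 29.4%) and 12 for progenitors (11.5%, all genes 18.5%). They gave 7 for both (6.73%, all genes 14.2%) and 6 for erythroblasts alone (5.77%, all genes 15.2%). An enrichment of at least 10 gave 10 for erythroblasts (9.62%, all genes 30.9%) and 3 for progenitors (2.88%, all genes 7.35%). It gave 2 for both (1.92%, all genes 5.83%) and 1 for progenitors alone (0.962%, all genes 1.52%). Members with 1 listed exon gave 14 for erythroblasts (20.9%, all such genes 31.7%) and 8 for progenitors (11.9%, all such genes 21.2%). They gave 6 for both (8.96%, all such genes 17.9%) and 2 for progenitors alone (2.99%, all such genes 3.35%). No paired analysis was possible because each stage has 1 column and 1 peak list. Coverage from 1 column per stage limits every difference, and genes low in either stage are missing from the table.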

Other observations

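Genes outside the naming rule, most of them zinc finger factors, were looked at from a list chosen with earlier results known. Of its 29 genes with listed exons, 3 rose (10.3%) and 9 fell (31.0%), beside 15.3% and 13.2% of all genes. Their median log2 difference was -0.31, against 0.03 over all genes. These counts include Ehmt1 (-1.53) among the falls and Znfx1 among the rises, which are not classical zinc finger genes. Egr1, an immediate early factor, had the largest fall of the list, with 14.2 in erythroblasts and 83.7 in progenitors (-2.48), and Klf16 had 3.74 in erythroblasts and 23.2 in progenitors (-2.35). Maz, which binds GC-rich promoters, had 83.8 in erythroblasts and 218 in progenitors (-1.37), and Yy1 had 14.1 in erythroblasts and 33.3 in progenitors (-1.19). Zeb2 had 13.1 in erythroblasts and 3.82 in progenitors (1.55), Znfx1 had 13.0 in erythroblasts and 4.58 in progenitors (1.32), and Klf3, a repressor that competes for CACCC sites, had 45.3 in erythroblasts and 22.1 in progenitors (1.01).

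Of 41 genes named for other kinds of zinc finger (Zc3h, Zcchc, Zdhhc, Zfand and similar names) 6 rose (14.6%) and 3 fell (7.32%), beside 15.3% and 13.2% of all genes, with a median of 0.11. No difference from the members was tested. Zfand6, an A20-type protein, had 14.4 in erythroblasts and 1.03 in progenitors (2.92), on a single exon. Zmynd11, a reader of methylated histone H3.3, had 32.1 in erythroblasts and 8.76 in progenitors (1.76) over 4 exons. Zcchc2 had 4.03 in erythroblasts and 32.8 in progenitors (-2.75), again on a single exon.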
